A study of Mus musculus with 2 samples.

Results

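Wnt pathway genes were compared between a clone of LM8 cells expressing human PHD4 and a clone with the empty vector. LM8 is a mouse osteosarcoma line that spreads to the lung, and PHD4 is a membrane-bound prolyl hydroxylase of the endoplasmic reticulum. The hPHD4 clone had been transfected with a full-length human cDNA in pcDNA3.1 and the control clone with pcDNA3.1 alone. Selection medium with 0.5 mg/ml G418 was common to both clones. Each group was 1 clone on 1 array, so a difference between clones cannot be told apart from an effect of the transgene, and no test or replicate check could be made. The array carried mouse sequences and 0 probe sets were assigned to P4htm, the mouse gene of PHD4, alone, so the transgene was not followed.

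The pathway was described through a list of 45 genes chosen by symbol: Wnt ligands, receptors, secreted inhibitors, the destruction complex with its regulators, and transcription factors. Probe sets annotated to 1 symbol alone were used, which gave 72 probe sets for 44 of these genes, out of 12393 genes on the array. Tcf7 had no such probe set and was not analysed here. Values are MAS5 signals, linear unless the log2 scale is named. A probe set was counted as measured when its signal exceeded the 40th percentile of its array in both clones, a floor of 81.1 on the hPHD4 array and 67.8 on the control array. By that rule 24 of the 44 genes were measured, a further 8 were above the floor in only 1 clone, and 12 were dim in both. Of the 72 probe sets 43.1% were above the floor in both clones, beside 57.2% of all 20380 probe sets with 1 symbol.

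Wnt proteins are secreted lipid-modified ligands that bind Frizzled receptors together with the co-receptors Lrp5 or Lrp6. Without a ligand, a complex of Axin, Apc and the kinase Gsk3b marks beta-catenin for degradation. With a ligand, Dishevelled proteins disable that complex, and beta-catenin enters the nucleus and joins the Tcf and Lef factors at target genes. In bone the pathway is known for its part in osteoblast differentiation. The osteoblast markers Sp7, Alpl, Col1a1 and Dlx5 were measured in both clones, among 9 of 9 osteoblast markers with a probe set; Runx2, Bglap and Spp1 were not analysed here. Sp7 had signals of 3039 in the hPHD4 clone, against 2588 in the control clone. Ibsp, the gene of bone sialoprotein, was the osteoblast marker past 1.5-fold, 2.13-fold above the control clone, and its 2 probe sets read 0.61 and 1.56 on the log2 scale. The other 8 had log2 ratios from −0.43 to 0.30. Of 6 chondrocyte markers 3 were measured: the cartilage collagen gene Col9a1 was 2.23-fold higher in the hPHD4 clone, Col2a1 had a log2 ratio of 0.57 and Sox9 one of −0.29. Among 8 epithelial and 5 adipocyte markers with a probe set, 0 passed the floor in both. Krt8 (173) and Krt14 (86.2) passed it only in the hPHD4 clone, and Pparg (115) only in the control clone. Of 7 endothelial markers 2 were measured, Kdr with a log2 ratio of 0.07 and Vwf with one of −0.58. Emcn (97.7) passed the floor only in the hPHD4 clone. Of the 3 measured smooth muscle markers, Acta2 was 2.82-fold and Mylk 3.76-fold lower in the hPHD4 clone, and Des had a log2 ratio of 0.42. Fcer1g of the leukocyte list was 9.17-fold lower while the other 4 measured leukocyte markers had log2 ratios from 0.00 to 0.48. Ptprc, the defining leukocyte marker, was under the floor in both clones. The part of these differences in the Wnt values was not tested, and fewer cells of a type cannot be told apart from less RNA per cell.

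Of the 24 measured members, 4 had a signal in the hPHD4 clone at least 1.5-fold above that in the control clone, and 3 at least 1.5-fold below. The 4 higher genes were Wnt10a, Axin2, Sfrp2 and Wnt7b, and the 3 lower genes were Gsk3b, Dkk3 and Porcn. These were 16.7% and 12.5% of the measured members, beside 8.94% higher and 5.22% lower among all 7452 measured genes at the same threshold. At the shares of all genes, 2.14 higher and 1.25 lower members would have been counted, so the surplus was about a pair of genes in each direction. The members were chosen with earlier results of these data known, so this surplus is no independent support for a shift of the pathway. Past 2-fold lay Wnt10a and Axin2 above the control clone and Gsk3b below it, where all genes gave 1.89% higher and 0.98% lower. The log2 ratio of Axin2 was short of 2-fold after quantile normalization (0.94), loess correction (0.95) or subtraction of chromosome medians (0.98). With dim probe sets kept it was 0.52. Gsk3b was short of 2-fold after subtraction of chromosome medians (−0.97). The median log2 ratio of the members, hPHD4 clone over control clone, was 0.20, with 15 above 0 and 9 below. Over all measured genes the median was 0.03, and 53.6% were above 0. As to signal level, 12 of the 24 members were among the dimmest of 3 equal groups of measured genes, where 16.3% of all genes were at least 1.5-fold higher, beside 3.38% in the brightest group. Of those 12 dim members 3 were higher and 1 was lower. Among all genes the higher ones made up 63.1% of those past 1.5-fold, and 50.9% after quantile normalization. With quantile normalization 3 members were higher and 3 lower, beside 6.66% and 6.43% of all genes. The loess correction also gave 3 and 3, beside 6.71% and 6.31%. Subtraction of chromosome medians gave 5 and 4, beside 7.56% and 5.06%. With dim probe sets kept, 4 of 44 were higher and 3 lower, beside 4.87% and 3.06%.

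No replicate gave an error for these ratios. In its place stands the disagreement of probe sets that read one gene, as a pooled SD of their log2 ratios, which was 0.40 in the dim group, 0.37 in the middle group and 0.28 in the bright group. Variation between cultures, between clones and between arrays is not part of it. Of the 7 members past 1.5-fold, 5 had a ratio over 2 such SDs, and 6 rested on 1 probe set. The 7 were picked for large ratios, so the count of 5 is partly fixed in advance. In the bright group 2 such SDs lie below the 1.5-fold cut, so every gene past the cut exceeds them. The count of 5 is therefore no support for a difference. In 11 of the 24 measured members the ratio was smaller than 1 SD. Neither count is given beside a share of all measured genes. These counts use the SD of a single probe set, also where the ratio is a mean of several.

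**Figure D1:**
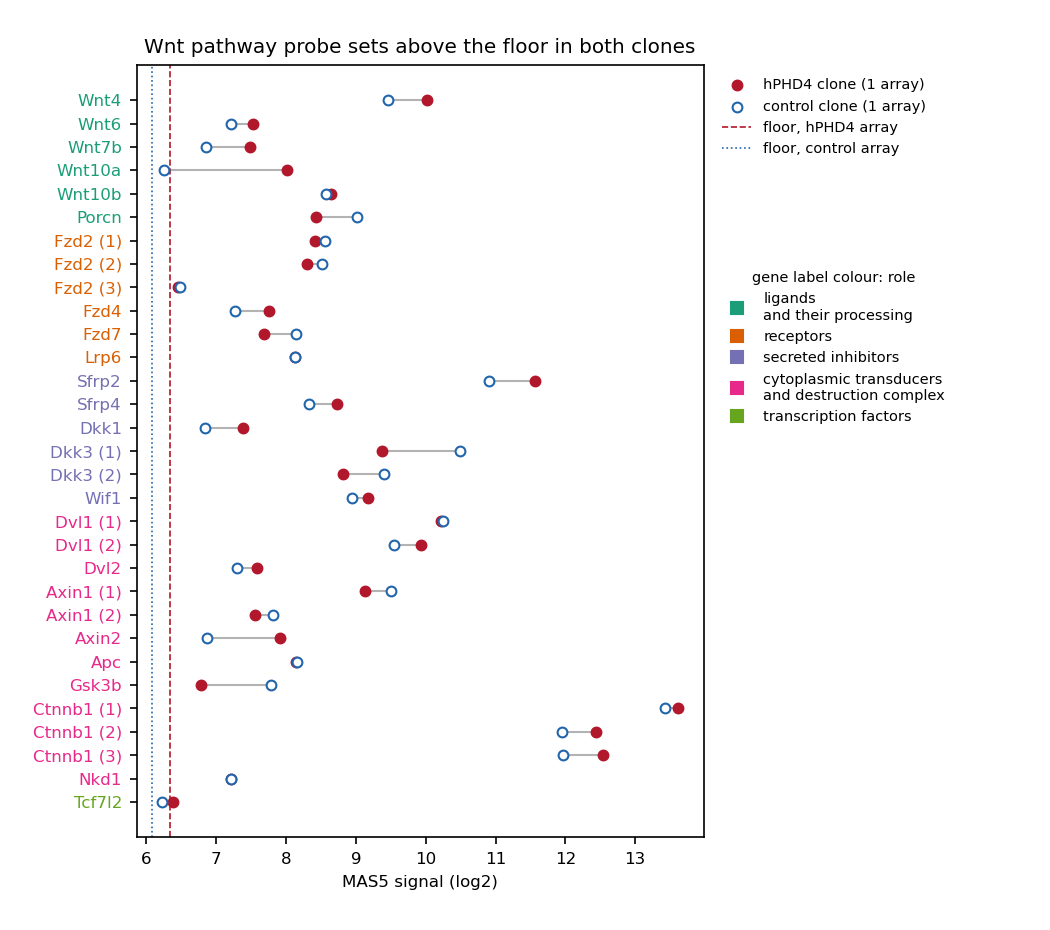
Signals of the 31 Wnt pathway probe sets above the floor in both clones, on the log2 scale, with 1 filled point for the hPHD4 array and 1 open point for the control array. Numbers in brackets count the probe sets of a gene, label colours give the role, and vertical lines mark the floor of each array. The widest gap is that of Wnt10a, whose control point lies just above the floor.

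Of the 6 measured genes for ligands and their processing, 2 passed 1.5-fold above the control clone and 1 passed it below, where the shares of all genes would give 0.54 and 0.31. Wnt10a had the ratio farthest from 0 of all 24 measured members. It had a signal of 258 in hPHD4 cells against 76.5 in control cells, a 3.38-fold difference with a log2 ratio of 1.76 against an SD of 0.40. The control signal was only 1.13 times the floor, so the size of the ratio rests on a value close to the limit of measurement. This ratio lay at the 99.8th percentile of all measured genes. Wnt10a encodes a ligand of the beta-catenin branch known from tooth, hair and bone. Wnt10b, its closest relative and a promoter of bone formation in mice, had 398 in the hPHD4 clone, against 379 in the control clone, a log2 ratio of 0.07 that was smaller than the SD of 0.37.

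Wnt4, a ligand that can signal with or without beta-catenin, had 1040 in hPHD4 cells against 704 in control cells. Its log2 ratio of 0.56 was 2.03 times the SD of its brightness group, and it fell short of 1.5-fold. After subtraction of the median of chromosome 4 (−0.07), the ratio was 0.63 and past 1.5-fold. Wnt7b, known to promote bone formation in mice, had 180 in the hPHD4 clone, against 116 in the control clone on its measured probe set, with a log2 ratio of 0.63 against an SD of 0.40. Its ratio was below 1.5-fold after quantile normalization (0.51) or a loess correction (0.51), and when dim probe sets were kept (0.32). Its other probe set was under the floor in both clones. Wnt6 had 184 in hPHD4 cells against 148 in control cells, a log2 ratio of 0.31 that was smaller than the SD. Porcn encodes the acyltransferase that attaches the lipid to Wnt ligands in the endoplasmic reticulum. It had 344 in the hPHD4 clone, against 518 in the control clone, 1.51-fold lower with a log2 ratio of −0.59 against an SD of 0.37. The ligands past 1.5-fold were thus Wnt10a and Wnt7b, and Wnt10b and Wnt6 had ratios smaller than their SD.

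A further 3 ligands passed the floor only in the hPHD4 clone. Over all members 5 of 72 probe sets (6.94%) were above the floor only in the hPHD4 clone and 5 only in the control clone, beside 4.15% and 4.28% of all probe sets. Wnt1 had 162 in hPHD4 cells against 61.7, under the floor, in control cells. Wnt11, a ligand of the beta-catenin-independent branch, had 98.9 in the hPHD4 clone, against 40.8 in the control clone. Wnt3a had 81.6 in hPHD4 cells, at the floor, against 51.1 in control cells. The signals above the floor were at most 1.99 times the floor, so no fold is given for these genes. Wnt2, Wnt3, Wnt5a and Wnt5b were dim in both clones on all 6 of their probe sets. Wnt5a, the main ligand of the beta-catenin-independent branch, had 3.54 and 2.52 in the hPHD4 clone, against 17.7 and 20.4 in the control clone, all under the floor.

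**Figure D2:**
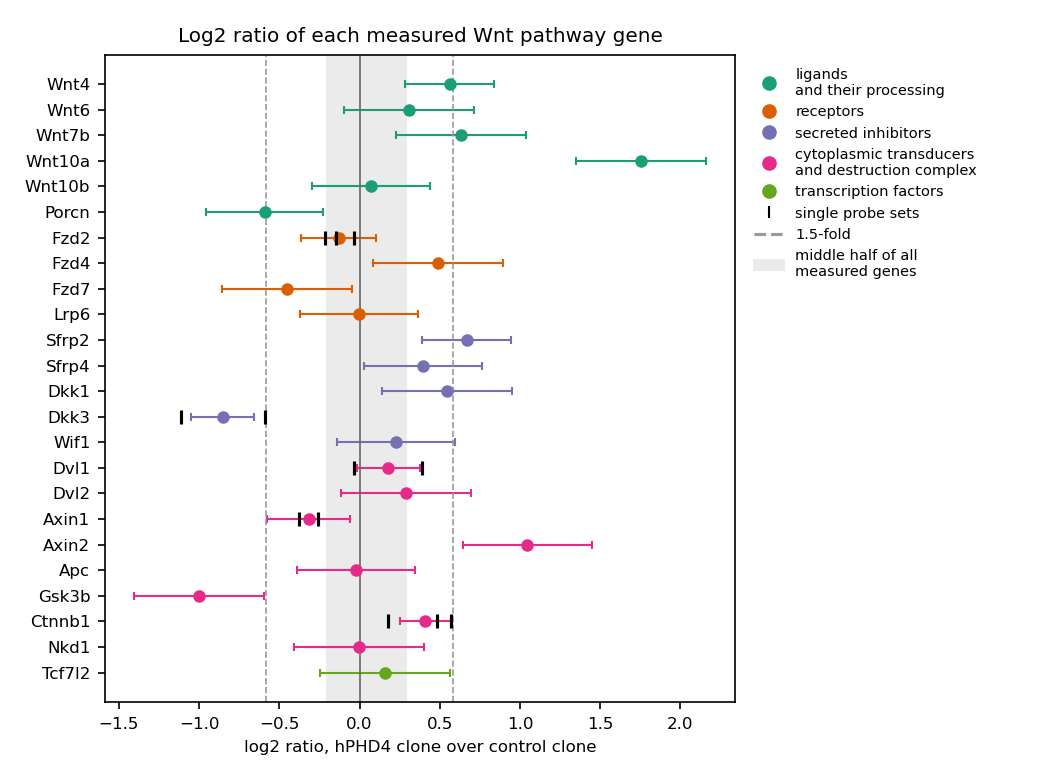
Log2 ratio (hPHD4 clone over control clone) of each of the 24 measured Wnt pathway genes, coloured by role. Bars give the pooled SD between probe sets of one gene divided by the square root of the number of measured probe sets, ticks show single probe sets where a gene had more than 1, dashed lines mark 1.5-fold and the grey band is the interquartile range of all measured genes. Wnt10a and Axin2 lie farthest to the right, and Gsk3b and Dkk3 farthest to the left.

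Of the receptors, 0 of the 4 measured were past 1.5-fold, and their median log2 ratio was −0.07. At the shares of all genes 0.36 higher and 0.21 lower would be counted among 4, so a count of 0 is not particular to receptors. Fzd2 was read by 3 probe sets, which had 342, 315 and 87.2 in hPHD4 cells against 378, 365 and 89.2 in control cells. All 3 were slightly lower in the hPHD4 clone, with a mean log2 ratio of −0.13 and an SD of 0.09 between them. Fzd7 had 206 in the hPHD4 clone, against 281 in the control clone, a log2 ratio of −0.45 against an SD of 0.40. After subtraction of the median of chromosome 1 (0.16), the ratio was −0.61 and past 1.5-fold. Fzd4, which also serves as the receptor of norrin, had 216 in hPHD4 cells against 154 in control cells, a log2 ratio of 0.49 against the same SD. Fzd2 and Fzd7 thus lay on one side of 0 and Fzd4 on the other.

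The co-receptor Lrp6 had 2 probe sets that disagreed. The measured one had 279 in the hPHD4 clone, against 280 in the control clone, a log2 ratio of −0.01. The other had 26.8 in hPHD4 cells, under the floor, against 128 in control cells. A floor at the 20th percentile lets both be averaged; the ratio of Lrp6 was then −1.13, so the gene has no settled difference in these data. Its paralog Lrp5 and the tyrosine kinase receptor Ror2, which binds Wnt5a, were dim in both clones, as were Fzd3 and Fzd6.

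Both Fzd8 and Fzd9 passed the floor only in the hPHD4 clone. Fzd8 had 111 in the hPHD4 clone, against 9.31 in the control clone, and Fzd9 had 139 in hPHD4 cells against 10.2 in control cells. The signals above the floor were only 1.36 and 1.71 times the floor, and both control signals were under it, so no size is given for these gaps. On the other side, Fzd1 had 75.2 in the hPHD4 clone, against 106 in the control clone, and Fzd5 had 32.4 in hPHD4 cells against 73.9 in control cells. With 1 clone under the floor, these 4 Frizzled genes have no settled difference.

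**Figure D3:**
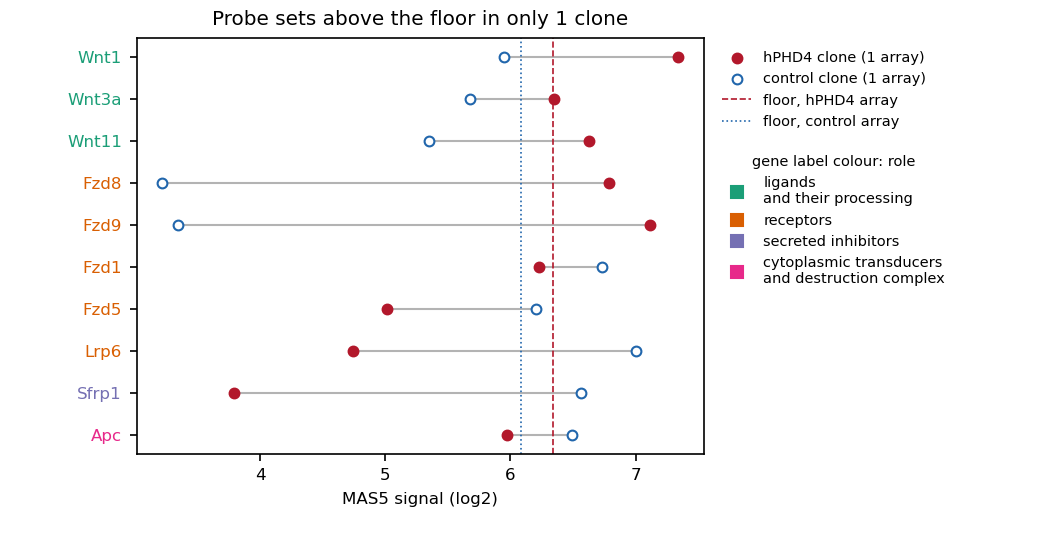
Signals of the 10 Wnt pathway probe sets above the floor in only 1 clone, on the log2 scale, with 1 filled point for the hPHD4 array and 1 open point for the control array. The upper 5 lie above the floor only in the hPHD4 clone and the lower 5 only in the control clone. The floor is a percentile of the signals on each array and not an estimate of background. A point under its floor was not counted as measured, so no size is read from the width of a gap here.

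Secreted inhibitors lay on both sides of the control clone. Dkk3, a divergent member of the Dickkopf family whose effect on Wnt signalling varies with the cell, was the only measured inhibitor below 0. Its 2 probe sets had 665 and 451 in the hPHD4 clone, against 1439 and 679 in the control clone. Both were lower in the hPHD4 clone, at log2 ratios of −1.11 and −0.59. The mean of −0.85 was 1.81-fold lower, with an SD of 0.37 between the probe sets beside 0.28 for genes of that brightness. Dkk3 was the member past 1.5-fold with more than 1 measured probe set, and its signals were at least 5.56 times the floor in both clones. Dkk1, which blocks Lrp5 and Lrp6 and is itself a target of beta-catenin, lay the other way with 166 in hPHD4 cells against 114 in control cells. Its log2 ratio of 0.54 was 1.34 times the SD, and it was 0.24 after subtraction of the median of chromosome 19. Dkk2 was dim in both clones.

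Sfrp2 encodes a secreted protein that carries a Frizzled-like domain and binds Wnt ligands. It had 3042 in the hPHD4 clone, against 1916 in the control clone, 1.59-fold higher with a log2 ratio of 0.67 against an SD of 0.28. With signals at least 28.2 times the floor, Sfrp2 was far from the limit of measurement. Sfrp4 of the same family had 422 in hPHD4 cells against 321 in control cells, a log2 ratio of 0.39 against an SD of 0.37. Wif1, a Wnt-binding inhibitor of another family, had 575 in the hPHD4 clone, against 492 in the control clone, a log2 ratio of 0.23 that was smaller than the SD. Sfrp1 was read by 4 probe sets, of which 3 were under the floor in both clones. The remaining one had 13.9 in hPHD4 cells, under the floor, against 94.6 in control cells, so Sfrp1 has no settled difference. Frzb, also of the Sfrp family, was dim in both clones on both of its probe sets.

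Among the cytoplasmic components, Axin2 and Gsk3b lay farthest from 0 and in opposite directions. Axin2, a scaffold of the destruction complex and a standard readout of beta-catenin signalling, had 241 in the hPHD4 clone, against 117 in the control clone on its measured probe set. The log2 ratio of 1.05 was 2.59 times the SD of 0.40. Its other probe set was under the floor in both clones, with 2.63 in hPHD4 cells against 10.6 in control cells, and with such probe sets kept at a common floor the ratio was 0.52. Axin1, the constitutive paralog, had 560 and 188 in the hPHD4 clone, against 727 and 225 in the control clone. Both of its probe sets were lower, with a mean log2 ratio of −0.32. That was smaller than the SD of 0.37 for a single probe set, which for a mean of 2 becomes 0.26. After subtraction of the median of chromosome 17 (−0.17), the ratio of Axin1 was −0.15.

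Gsk3b had 110 in hPHD4 cells against 220 in control cells on its only probe set, a log2 ratio of −1.00 against an SD of 0.40. The signal in the hPHD4 clone was 1.36 times the floor. Its ratio lay at the 0.966th percentile of all measured genes. The paralog Gsk3a, which shares much of its function, had 1087 in the hPHD4 clone, against 792 in the control clone, a log2 ratio of 0.46. Apc, the scaffold mutated in familial polyposis, had 281 in hPHD4 cells against 286 in control cells on its measured probe set, a log2 ratio of −0.02. Its other 2 probe sets were under the floor in at least 1 clone.

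Ctnnb1 encodes beta-catenin itself. Its 3 probe sets had 12491, 5566 and 5957 in the hPHD4 clone, against 11063, 3978 and 4012 in the control clone. All 3 were higher in the hPHD4 clone, at log2 ratios of 0.18, 0.48 and 0.57. The mean of 0.41 was 1.33-fold higher, with an SD of 0.21 between probe sets and 0.28 for genes of that brightness. Read from the brightest probe set alone it was 0.18. The level of the protein, which the pathway controls through degradation, was not measured. Dvl1 and Dvl2, which relay the signal from Frizzled, had log2 ratios of 0.18 and 0.29, both smaller than their SD, and Dvl3 was dim in both clones. Nkd1, a feedback inhibitor that binds Dishevelled, had 148 in both clones and a log2 ratio of 0.00.

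Of the nuclear factors, Tcf7l2 was read just above the floor by 1 of its 4 probe sets, with 83.7 in hPHD4 cells against 74.9 in control cells. The log2 ratio of 0.16 was smaller than the SD of 0.40. Lef1, which is also a target of the pathway, was dim in both clones, at 3.09 in the hPHD4 clone, against 6.19 in the control clone.

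Promoter sequence is shown for Axin2, Sfrp2 and Gsk3b, the members past 1.5-fold with a window in the table used, and for Dkk1, whose window held the letters of a Tcf/Lef site. The sequences are from RefSeq on GRCm38.p6 and cover the 250 bases before the annotated start, 5′ to 3′ on the strand of the gene. Capitals mark matches to a run of CTTTG followed by AA, AT or TT, searched on both strands with overlaps counted.
Axin2 promoter, chr11:108920099-108920348, plus strand: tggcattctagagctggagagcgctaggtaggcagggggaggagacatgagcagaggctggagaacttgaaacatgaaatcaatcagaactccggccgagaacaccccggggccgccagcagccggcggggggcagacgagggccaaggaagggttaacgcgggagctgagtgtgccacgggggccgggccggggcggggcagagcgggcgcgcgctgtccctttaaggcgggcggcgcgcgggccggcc
Sfrp2 promoter, chr3:83766071-83766320, plus strand: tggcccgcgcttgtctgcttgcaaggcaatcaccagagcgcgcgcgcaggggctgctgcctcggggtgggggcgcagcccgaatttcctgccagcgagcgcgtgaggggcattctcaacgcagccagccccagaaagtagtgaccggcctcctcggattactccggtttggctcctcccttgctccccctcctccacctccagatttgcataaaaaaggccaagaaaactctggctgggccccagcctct
Gsk3b promoter, chr16:38088751-38089000, plus strand: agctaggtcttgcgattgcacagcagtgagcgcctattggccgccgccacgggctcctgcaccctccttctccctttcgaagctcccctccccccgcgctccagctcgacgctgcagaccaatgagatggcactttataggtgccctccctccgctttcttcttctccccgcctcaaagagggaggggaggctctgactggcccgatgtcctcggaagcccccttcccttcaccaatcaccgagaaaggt
Dkk1 promoter, chr19:30549497-30549746, minus strand: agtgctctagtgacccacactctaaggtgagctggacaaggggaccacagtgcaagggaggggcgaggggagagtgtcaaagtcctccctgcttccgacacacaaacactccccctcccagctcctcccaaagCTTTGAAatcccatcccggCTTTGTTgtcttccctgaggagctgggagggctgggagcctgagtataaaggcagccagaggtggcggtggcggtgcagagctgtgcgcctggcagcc
The Dkk1 window held 2 matches, CTTTGAA starting 117 bases and CTTTGTT starting 98 bases before the start. The windows of Axin2, Sfrp2 and Gsk3b held 0 within these 250 bases. Axin2 had 24 CpG dinucleotides and a GC content of 69.2%, and Dkk1 had 6 and 60.8%. Over windows that also take in 50 bases after the start, 30 members had 39 windows, of which 6 or 15.4% held a match, beside 13.9% of all 32851 windows. The share among members was thus close to that of all genes, but the windows differed in base content. Member windows had a median GC content of 66.7% and 24 CpG dinucleotides, beside 52.7% and 7 over all windows. The shares are therefore not a like comparison. Wnt3, Wnt5b, Wnt11, Fzd7 and Tcf7l2 were the other members with a match. Wnt7b, Wnt10a, Porcn and Dkk3 had no window in the table.

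Targets of the pathway outside the member list were measured for 13 of 24 genes with a probe set. The rest had no probe set above the floor in both clones, so the measured targets are a part of the list. Of the 13, 3 were past 1.5-fold above the control clone and 1 past it below, with a median log2 ratio of 0.08. The shares of all genes would give 1.16 and 0.68. Id2, a helix-loop-helix inhibitor that is also induced by BMP signals, had 478 in hPHD4 cells against 235 in control cells, 2.04-fold higher on 2 probe sets. Apcdd1, a membrane-bound Wnt inhibitor, was 1.87-fold higher, with log2 ratios between 0.54 and 1.17 on 4 probe sets. Notum, the enzyme that removes the lipid from Wnt ligands, had 217 in the hPHD4 clone, against 125 in the control clone, a log2 ratio of 0.79. Fosl1, an AP-1 subunit, lay below at −0.68, and Twist1 was at −0.58, short of 1.5-fold. The classical targets Ccnd1 and Myc were at 0.26 and −0.25, and Cd44 was at −0.48 on 2 probe sets of one sign. Ccn4, a matricellular protein first described as a Wnt-induced gene, was at 0.46. Ccn5 had 127 in hPHD4 cells against 18.1, under the floor, in control cells. For Tnfrsf11b the highest signal of its 2 probe sets was 27.3, under the floor, in hPHD4 cells and 87.1 in control cells. With 1 clone under the floor, Ccn5 and Tnfrsf11b have no settled difference.

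Other components of the pathway were measured for 26 of 45 genes with a probe set. Of the 26, 6 were past 1.5-fold above the control clone and 1 past it below, with a median log2 ratio of 0.17. The shares of all genes would give 2.32 and 1.36. Lgr6, a receptor of R-spondins, had 191 in the hPHD4 clone, against 72.6 in the control clone, 2.64-fold higher with the control signal close to the floor. The Groucho corepressor genes Tle3 and Tle2 were at 0.86 and 0.64, Tle4 was at 0.56 and Tle5, a truncated relative, at −0.16. The value of Tle3 rests on 1 of its 3 probe sets, and another was above the floor only in the control clone. Bcl9l, a co-activator that binds beta-catenin, was at 0.65, and Tnks2, a tankyrase that leads to Axin degradation, at 0.63. Notum belongs to this list too. Cxxc5, a Dishevelled-binding inhibitor, was the only one at least 1.5-fold lower, at −0.72. Wls, which carries Wnt ligands to the cell surface, was at −0.55, with all 3 of its probe sets below 0.

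In the branch that acts through planar polarity and calcium, 16 of 19 genes with a probe set were measured. Of the 16, 3 were past 1.5-fold above the control clone and 1 below, with a median log2 ratio of 0.04. The shares of all genes would give 1.43 and 0.84. Prickle1, a core polarity protein, had 226 in hPHD4 cells against 99.6 in control cells, a log2 ratio of 1.18 against an SD of 0.40. The membrane protein Vangl1 was at 0.61. The kinase genes Mapk8 and Mapk9, which encode JNK1 and JNK2, lay at 0.66 and −0.62. The small GTPase genes Rhoa, Rac1 and Cdc42 were between −0.10 and −0.01. Together the other Wnt genes of these lists held 11 higher and 3 lower among 54 measured, 20.4% and 5.56%, beside 8.94% and 5.22% of all measured genes. The lists were chosen with earlier results of these data known, so this gap is no independent support for a shift of the lists. After subtraction of the median, quantile normalization or loess correction the lower count was 5, with 10, 9 and 9 higher. All genes then gave 8.21%, 6.66% and 6.71% higher and 5.97%, 6.43% and 6.31% lower. After subtraction of chromosome medians 8 were higher and 6 lower, beside 7.56% and 5.06% of all genes.

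**Figure D4:**
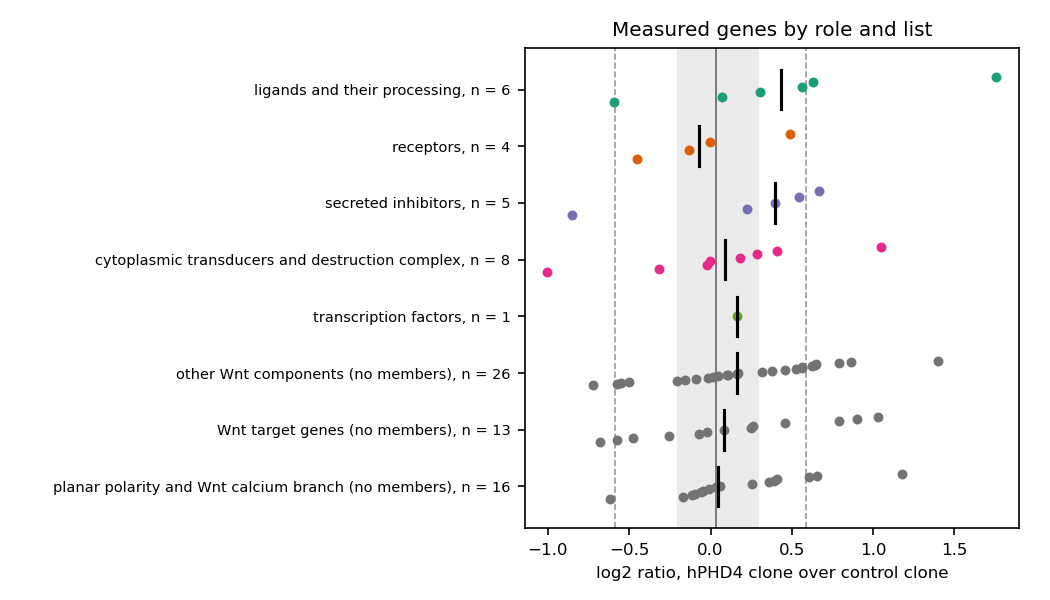
Log2 ratios (hPHD4 clone over control clone) of measured genes, 1 point for each gene, for the members by role and for the other Wnt lists without members. Black bars are medians, the grey band and line are the interquartile range and median of all measured genes, and dashed lines mark 1.5-fold; points are offset vertically for legibility. Medians of ligands with their processing (0.43) and secreted inhibitors (0.39) lie highest and that of receptors (−0.07) lowest.

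The ratios of most members moved little with the processing. For the 19 of 24 members measured by 1 probe set, some settings could only return the same ratio, so this is partly fixed in advance. Wnt10a remained between 1.60 and 1.76 in the 8 alternatives that measured it, Gsk3b between −1.14 and −0.97 in 8, Dkk3 between −1.11 and −0.85 in 9 and Sfrp2 between 0.64 and 0.70 in 9. Axin2 ranged more widely, from 0.52 to 1.05 in 8 alternatives, and was past 1.5-fold in 7 of them. With the floor at the 60th percentile, Wnt10a, Wnt7b, Axin2 and Gsk3b were no longer measured, and Sfrp2, Dkk3 and Porcn were the members left past 1.5-fold.

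**Figure D5:**
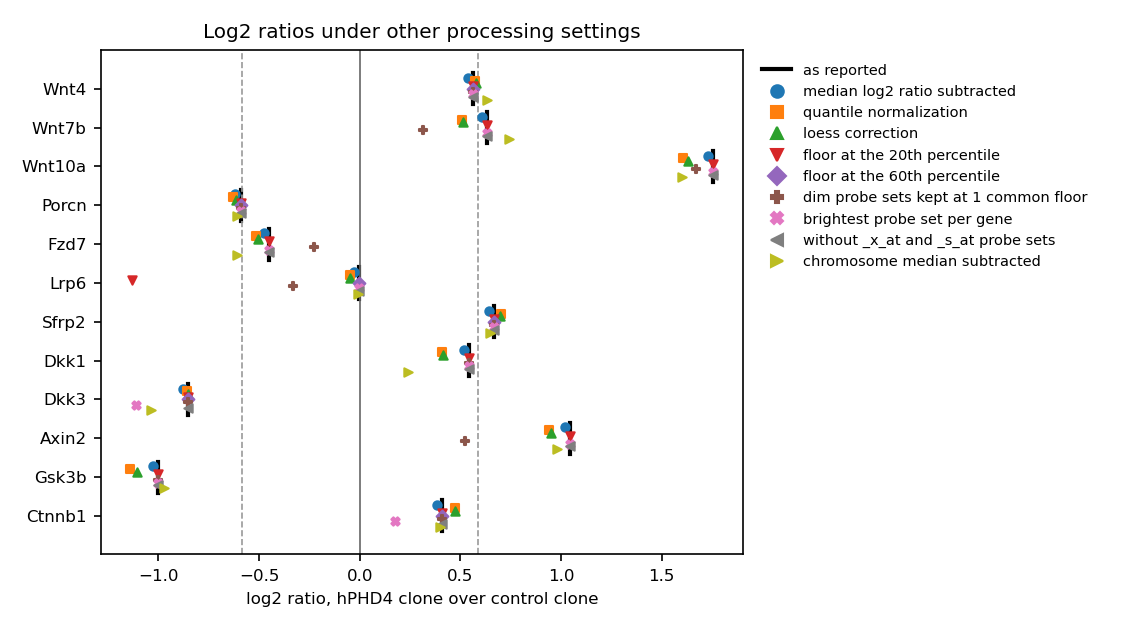
Log2 ratios (hPHD4 clone over control clone) of 12 members as reported (black bar) and under each alternative setting that measured them (symbols); dashed lines mark 1.5-fold. The ratio of Axin2 is 0.52 with dim probe sets kept and that of Lrp6 is −1.13 with the floor at the 20th percentile, each far from the reported value.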

How the data were processed

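Total RNA of 1 hPHD4 clone and 1 control clone (5 µg each, biotin labelled, per the labels' protocols) was measured on 1 array each. The deposited log2 values are MAS5 signals, as the submitters' processing notes name that tool; its version and settings were not stated in the labels. As powers of 2 their mean, without the top and bottom 2%, was 500.2 on each array, which fits a base of 2 and a common scaling. Gene symbols came from the platform annotation and chromosomes from a GRCm38.p6 gene table.

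A gene's value is the log2 signal of the hPHD4 clone minus that of the control clone, averaged over probe sets above the 40th percentile of the non-control probe sets on both arrays. Signals given for a single probe set are as deposited, on the linear scale. With 1 array per group no test was run, and precision is limited by the number of arrays. Pooled SDs came from 2800 genes with at least 2 measured probe sets, in 3 equal groups of measured genes by mean signal. A bound was planned for genes under the floor in one clone and above the 75th percentile in the other, and 0 members met it. All members were named, and those measured were given with values; of the other lists, those at least 1.5-fold higher or lower were named. Gsk3a, Tle4, Tle5, Wls, Ccn4, Ccnd1, Myc, Cd44, Ccn5, Tnfrsf11b, Twist1, Rhoa, Rac1 and Cdc42 were chosen after their values were seen. The members and lists were chosen with earlier results of these data known. Protein sequences were planned for comparison within families and were not used here. Other scalings, floors, probe set choices and folds were tried. The steps were tested on simulated data with Python 3.11.15, pandas 2.3.3 and statsmodels 0.14.6.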

Additional observations from a re-analysis of the deposited data

How the results depend on the processing

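A floor at the 20th percentile put 9 of 32 measured members past 1.5-fold above the control clone and 5 below, where 16.4% of all measured genes were higher and 6.64% lower. A floor at the 60th percentile put 1 of 13 above and 2 below, beside 4.71% and 4.58% of all genes. Fewer probe sets are then measured. At 2-fold the counts were 2 higher and 1 lower, beside 1.89% and 0.98% of all genes. At 1.3-fold 9 of 24 were higher and 4 lower, beside 18.9% and 12.7%. The median of the members lay between 0.00, with dim probe sets kept, and 0.26 under all alternatives. For the other Wnt lists 4 of 38 genes were higher and 1 lower with the floor at the 60th percentile, beside 4.71% and 4.58% of all genes. With dim probe sets kept, 9 of 85 were higher and 1 lower, beside 4.87% and 3.06%. After subtraction of the median, quantile normalization or loess correction 5 of 54 were lower, beside 5.97%, 6.43% and 6.31%. Once chromosome medians were subtracted 8 of 54 were higher and 6 lower, beside 7.56% and 5.06%. The cause was not tested. Of 205 ratios of single members under alternatives, 203 moved by less than the SD between probe sets and 0 of the members past 1.5-fold changed sign. For the 19 of 24 members measured by 1 probe set, a higher floor or the brightest probe set can only return the same ratio. The count of 203 is thus partly fixed in advance and is no measure of robustness. No paired analysis was possible because each group holds 1 array. Wnt10a, Axin2, Wnt7b and Gsk3b, all within 3.25 times the floor in both clones, are limited by that closeness.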
